A study of Drosophila simulans and Drosophila melanogaster and Drosophila sechellia with 48 samples.

Results

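The cytoplasmic ribosomal proteins were followed in whole males of 7 species of the Drosophila melanogaster subgroup. The members were the 37 genes for which a probe set of the Affymetrix Drosophila Genome array carried a single gene symbol made of RpL, RpS or RpLP and a number, out of 12367 features tested, 10844 of them named by 1 gene. A further 2 probe sets with such a symbol also carried the symbol of another gene and were left out. Of the 37 genes, 24 were canonical (14 of the large and 10 of the small subunit) and 13 were duplicated copies, with symbols that end in a paralog letter or in -like. RpL37-1 and RpL37-2 were counted with the copies, because their older symbols ended in letters. All 37 were tested and none was removed for a low signal. Values are log2 MAS5 signals after quantile normalization between arrays, and differences are differences of such values.

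There were 48 arrays, 3 for each of 16 groups, with RNA of 20 whole males aged 3 days, raised at 25 °C, on each. D. yakuba, D. santomea and D. teissieri (the yakuba complex), D. mauritiana (David 105) and D. sechellia (Roberstson) were each measured in 1 line, so species and line cannot be told apart for these 5. The D. melanogaster samples mixed, in even parts, the genotypes of 10 isogenic lines from Winters, California, that had been crossed in a round robin, and D. simulans was measured in 10 separate crosses of 10 isogenic lines of the same place (6x11, 11x36, 36x37, 37x43, 43x61, 61x77, 77x85, 85x99, 99x105 and 105x6), in which neighbouring crosses share a line. The arrays of D. melanogaster and D. simulans were made earlier than those of the other 5 species. The probes were designed on the D. melanogaster sequence and the deposited signals keep all probe sets, so that a difference in transcript abundance and a difference in the match of the probes cannot be told apart between species. In RNA of whole males, fewer cells of a type and less RNA per cell cannot be told apart either. D. simulans entered as the equal mean of its crosses (30 arrays).

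Ribosomal proteins assemble with ribosomal RNA into the small and the large subunit, and a growing or secreting cell devotes a large share of its transcripts to them. Most are encoded in Drosophila by a single gene that is expressed in nearly every cell, and loss of a copy of many of these genes gives the Minute phenotype of thin bristles and slow development. Several proteins have a duplicate gene, and a number of the duplicates are known from the germ line of the testis or ovary. A few genes named as -like encode nucleolar relatives of ribosomal proteins that act in the assembly of the subunits.

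Although all samples are labelled as males, 2 arrays stood apart by transcripts of females, namely replicate 1 of D. sechellia and replicate 3 of the D. simulans cross 37x43. The mean log2 signal of 17 yolk and eggshell genes was 10.97 and 10.75 on these arrays and lay between 6.28 and 8.37 on the 46 others, and 13 of the 17 genes lay more than 1 above their median in each. Apart from these 2 arrays, the species medians of this list were 8.06 to 8.24 in the yakuba complex and 6.31 to 7.27 in the melanogaster complex. The 11 measured genes of the female germ line were at a mean of 8.13 and 8.65, against 5.80 to 7.52 on the others. Of these 11 genes, 5 and 8 lay more than 1 above their median on the 2 arrays, and 1 and 0 more than 1 below. The 19 testis and sperm genes were at 8.54 and 8.59, at the low end of the range of 8.17 to 10.26 of the others. Male markers also differed between species, with a median of 10.13 for the testis list in D. melanogaster, 9.84 in D. simulans and 8.79 to 9.31 in the other 5, and of 11.65 for 10 accessory gland genes in D. melanogaster against 4.85 to 5.80 in the yakuba complex. The 7 measured muscle genes had medians of 12.12 to 14.54, the highest in D. mauritiana. The log2 ratio of the 3' to the 5' control probe set of actin averaged 0.245 ± 0.387 (SD, n = 3) in D. melanogaster and between 1.91 and 2.38 in the other species. On single arrays the actin ratio ran from 0.635 to 4.53 in D. yakuba, 0.312 to 5.24 in D. santomea and 0.918 to 7.61 in D. simulans. That of GAPDH averaged 0.952 ± 0.111 in D. melanogaster, 0.408 in D. mauritiana, -1.05 in D. simulans, -1.10 in D. sechellia and -2.41 in D. santomea, -2.83 in D. yakuba and -2.947 in D. teissieri. That of eIF-4a averaged 3.13 ± 2.29 in D. santomea, 1.83 ± 0.232 in D. melanogaster and 0.639 to 1.07 in the others. The lowest correlation between arrays of a group was 0.659 in D. yakuba, 0.701 in D. santomea and 0.778 or more in the other groups. In the tests all 16 groups shared 1 estimate of the spread. Array medians of the deposited log2 signals spanned 0.696. Their scaling moved the canonical genes more than it moved most features. It is named for the counts and for some of the genes, but not for every call that it turned. As deposited, RpS20 was called higher in the yakuba complex than in the melanogaster complex (1.29, adjusted p = 6.23e-11, against 0.09 with quantiles). RpL27 was called higher there than in D. sechellia and D. mauritiana (1.15, 1.73e-08, against 0.17). RpL10Ab was called higher in D. simulans than in D. melanogaster (0.63, 0.019, against 0.49).

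Canonical ribosomal protein genes were lowest in D. melanogaster. Each gene's deviation was taken from its equal mean of the species means. The median deviation of the 24 genes was -0.62 ± 0.09 (SD, n = 3 arrays) in D. melanogaster, with values of -0.73 to -0.55, and the arrays of the other 6 species lay between -0.26 and 0.47. The lowest species mean was that of D. melanogaster for 16 of the 24 genes, a share of 66.7%, against 23.7% of all features, and for 20 of 24 in the signals as deposited and with arrays centred on their medians. The 13 duplicated copies did not follow, with a median deviation of 0.45 ± 0.23 in D. melanogaster, and the median over all features was -0.01. D. melanogaster is also the species the probes were designed on, and it had the lowest mean actin ratio, the highest mean GAPDH ratio and the highest medians of the accessory gland and testis lists given above, although its arrays overlapped with those of other species in both ratios and in the testis list. Their part in the result was not tested. The order of the other species depended on the scaling. With quantiles D. sechellia had the highest canonical deviation (0.32 ± 0.16, n = 3) and the highest mean for 10 of 24 genes, whereas as deposited its deviation was -0.28, it was highest for 0 of 24, and D. santomea (0.88) and D. teissieri (0.56) lay above it.

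**Figure D1:**
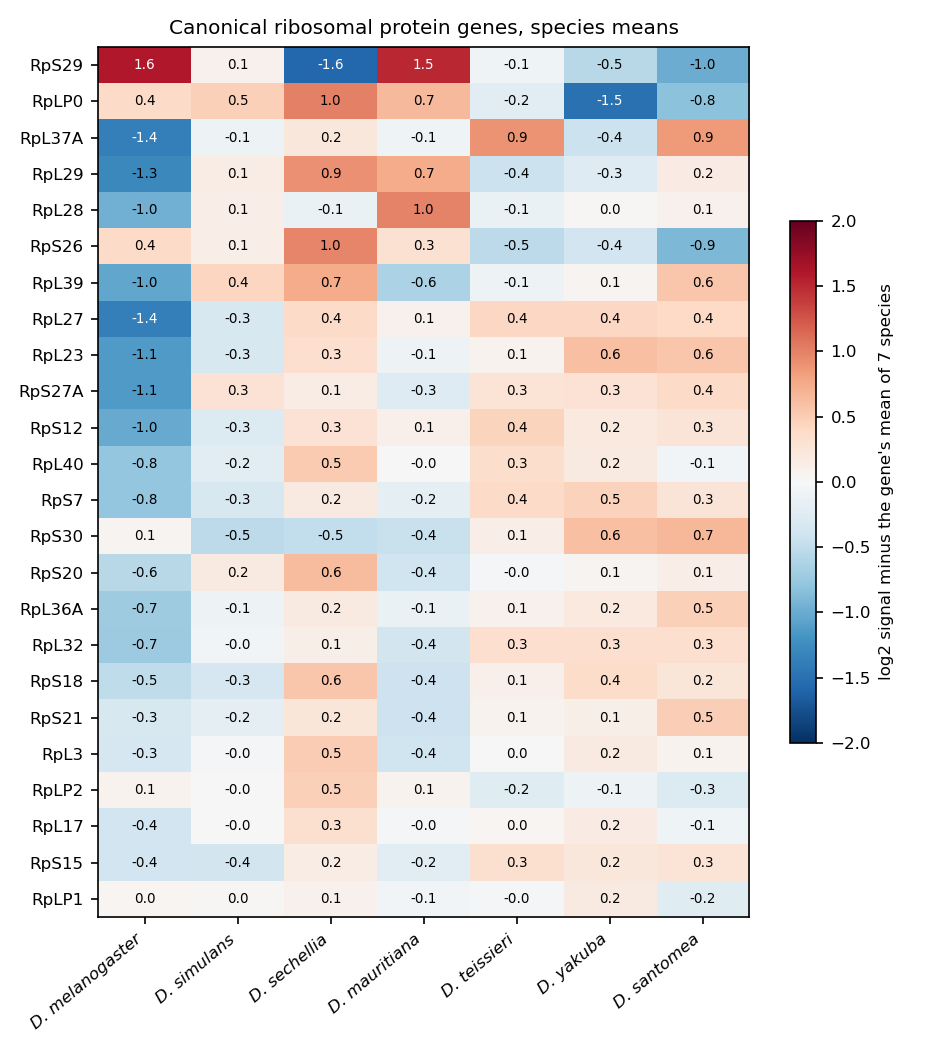
Species means of the 24 canonical genes, each as its log2 signal minus the gene's mean of the 7 species, on a colour scale from -2 (blue) to 2 (red), with 3 arrays behind each cell and 30 for D. simulans. The D. melanogaster column is lowest in 16 rows and highest in 1, that of RpS29, and RpLP0 and RpS26 also run the other way. The high D. sechellia column turns with the scaling and fell to a median deviation of -0.28 in the signals as deposited.

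**Figure D2:**
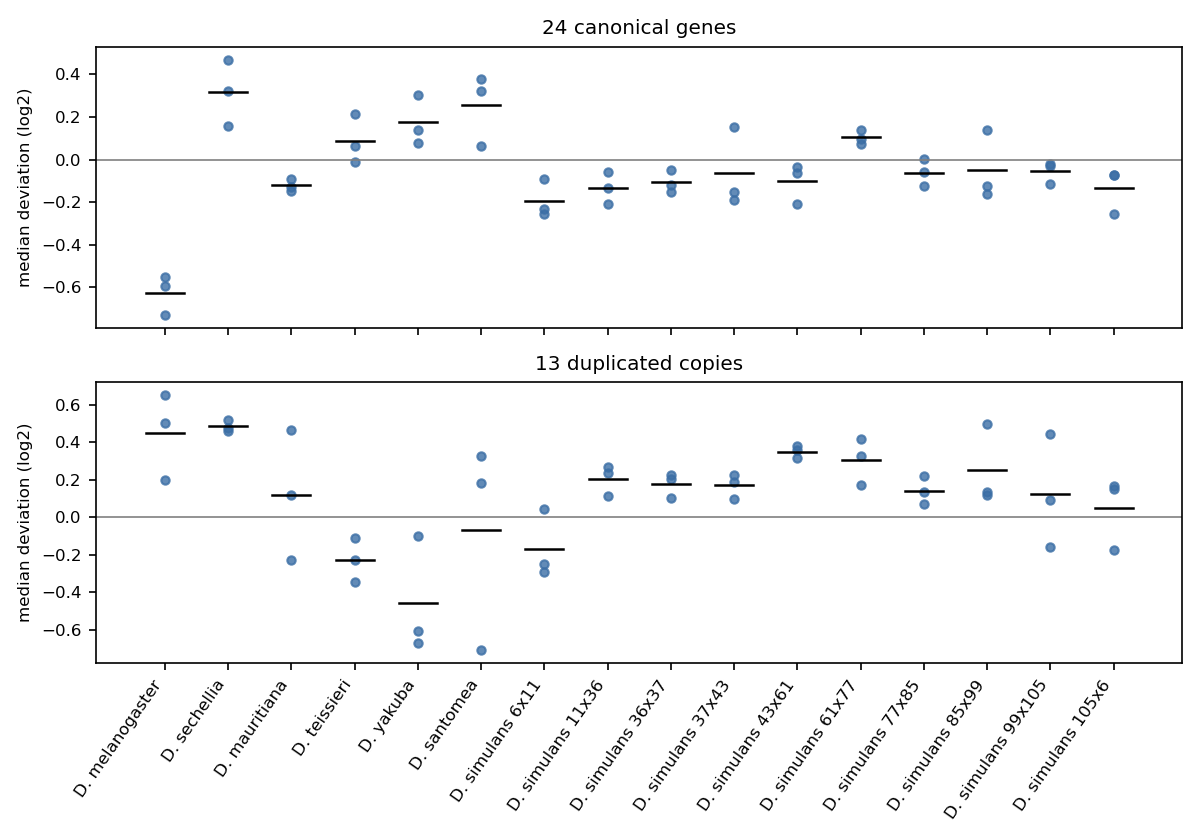
Median deviation of the canonical genes (top) and of the duplicated copies (bottom) from each gene's equal mean of the species means, in log2, with 1 point per array and a line at the mean of each of the 16 groups. The 3 D. melanogaster arrays lie between -0.73 and -0.55 for canonical genes and between 0.20 and 0.65 for copies; D. sechellia is above D. mauritiana for canonical genes with quantiles only.

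Over the 7 species, limma called 32 of the 37 members (20 canonical, 12 duplicated), a share of 86.5%, against 66% of all features. The largest F values were those of RpL27 (28.1, adjusted p = 1.19e-10), RpL37-2 (19.9), RpL23 (18.5), RpL24-like (17.5), RpLP0 (17.3) and RpL37A (16.1). RpL27, a protein of the large subunit, was at 13.40, 13.02 and 13.45 in D. melanogaster, between 14.14 and 14.62 on the 30 D. simulans arrays, and between 14.47 and 15.23 on the 15 arrays of the other 5 species. No D. melanogaster array reached those of any other species. RpL23, which lies where the subunits meet, was at 12.91, 12.54 and 12.67 in D. melanogaster and at 13.15 or more elsewhere. The differences that remained small were those of RpLP1, a protein of the lateral stalk, whose species means ranged over 0.43 (14.13 to 14.56, adjusted p = 0.541), of RpS15 (0.70), RpL17 (0.70), RpLP2 (0.75) and RpL3 (0.90). Of these, RpS15 was called (adjusted p = 7.95e-06), while RpL17 (adjusted p = 0.311), RpLP2 (0.135) and RpL3 (0.0529) were not. In the signals as deposited RpLP1, RpL17 and RpL3 were called too (adjusted p = 7.26e-05, 7.33e-07 and 0.000113).

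Between the species of the earlier collection, canonical genes were higher in D. simulans. Of 24 genes, 13 were called higher and 0 lower (15 at an unadjusted p under 0.05), a share of 54.2%, where limma called 19.2% of all features, 10.1% higher and 9.1% lower. The median difference was 0.51 over canonical genes, -0.29 over the copies and 0.09 over all features. The counts of 13 and 0 were the same as deposited and with median centring. The other 2 of these 15 genes were lower in D. simulans at an unadjusted p only. RpS29 differed by -1.51 ± 0.64 (SE, adjusted p = 0.0979), in size the largest difference of the canonical genes here. Its probe set had the lowest mean log2 signal of these genes (7.10). RpS30, whose precursor carries a ubiquitin-like domain, was at a difference of -0.58 ± 0.22 (SE, adjusted p = 0.055), and was called lower with dim features left out (0.0377), with a trended and robust spread (0.024) and without both arrays with female transcripts (0.0177), but was at -0.30 (0.353) as deposited.

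RpL39, a small protein of the exit tunnel, was at 12.23, 12.44 and 13.33 in D. melanogaster and at 13.88, 14.08 and 15.16 (lowest, median and highest of 30) in D. simulans. The groups did not overlap, and the difference was 1.46 ± 0.20 (SE, adjusted p = 2.28e-06). RpL29 was at 12.47, 12.23 and 12.83 against 13.34 to 14.92, a difference of 1.44 ± 0.20 (adjusted p = 2.34e-06). RpS27A, made as a fusion with ubiquitin, was at 12.83, 13.18 and 13.39 against 13.51 to 14.88, and differed by 1.41 ± 0.20 (adjusted p = 3.21e-06). RpL37A (1.26 ± 0.20) and RpL28 (1.09 ± 0.20) came next. RpL40, the other ubiquitin fusion of the ribosome, differed by 0.56 ± 0.17 (adjusted p = 0.0145), a call that ended without D. melanogaster replicate 2 (0.37, adjusted p = 0.239), as did those of RpS12 (0.435, adjusted p = 0.239) and RpS7 (0.34, 0.242). The call of RpS7 also ended without D. melanogaster replicate 1, and that of RpL36A (0.61) without replicate 3. Arrays did not overlap for 9 canonical genes and 1 copy, RpL37-1, all higher in D. simulans, against 2.27% of all features. Among the copies, RpL37-1 (0.70 ± 0.15, adjusted p = 0.00121) and RpLP0-like (1.49 ± 0.49, 0.0295) were higher and RpL10Aa (-1.43 ± 0.46, 0.026) was lower, and the calls of RpLP0-like and RpL10Aa were each lost without D. melanogaster replicate 2, that of RpLP0-like also without replicate 1 and that of RpL10Aa without replicate 3.

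Between the yakuba complex and the melanogaster complex (D. melanogaster, D. simulans, D. sechellia and D. mauritiana), canonical genes and copies had medians of opposite sign, a difference that was itself not tested. Of the canonical genes 13 were called higher and 3 lower in the yakuba complex, and of the copies 3 were called higher and 7 lower, where limma called 49.8% of all features, 25.3% higher and 24.5% lower, against 66.7% of the canonical genes and 76.9% of the copies. The median difference was 0.35 over canonical genes, -0.95 over copies and 0.08 over all features. The median of the copies was the value of RpS5b, and was -0.61 without D. sechellia replicate 1 and -0.58 without both arrays with female transcripts. The classes also differed in signal, with a median log2 signal of 14.47 over canonical genes and 8.28 over copies. Among the copies RpL10Ab (14.99), RpL37-1 (14.36) and RpS28b (13.51) were bright. The first 2 of them were called higher (0.63 and 0.56) and RpS28b lower (-1.19). The part of signal strength was not tested. The GAPDH ratio was lower and the yolk and eggshell list higher in the yakuba complex, as given above, and their part in these differences was not tested. As deposited, 18 canonical genes were called higher and 2 lower with a median of 1.15, and the median of all features was 0.19, while 3 copies were called higher and 6 lower, RpS5b no longer among them. The same split within the later collection, which sets the yakuba complex against D. sechellia and D. mauritiana and shares those 15 arrays with the first comparison, called 4 canonical genes higher and 5 lower and 2 copies higher and 8 lower, where 39.3% of all features were called, 18.4% higher and 21% lower. The canonical share of 37.5% was near that background, and that of the copies was 76.9%. Arrays did not overlap for 4 members that were lower (RpL22-like, RpLP0, RpS26 and RpS28b; 5.15% of all features) and for 3 that were higher (RpL32, RpL37-2 and RpS30; 3.56%). Its canonical direction depended on the scaling, with 15 called higher and 4 lower as deposited and 14 and 4 with median centring, whereas the copies were 4 higher and 7 lower and 3 higher and 7 lower. Medians were 0.11 for canonical genes, -1.22 for copies and 0.05 for all features with quantiles, and 0.84 for canonical genes and 0.21 for all features as deposited. Without D. sechellia replicate 3 the canonical median with quantiles was 0.05. Without the D. melanogaster arrays the first comparison called 9 canonical genes higher and 4 lower, and RpL36A (0.27, adjusted p = 0.0643), RpL40 (0.06, 0.729), RpS12 (0.26, 0.117) and RpS27A (0.26, 0.147) were no longer called.

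**Figure D3:**
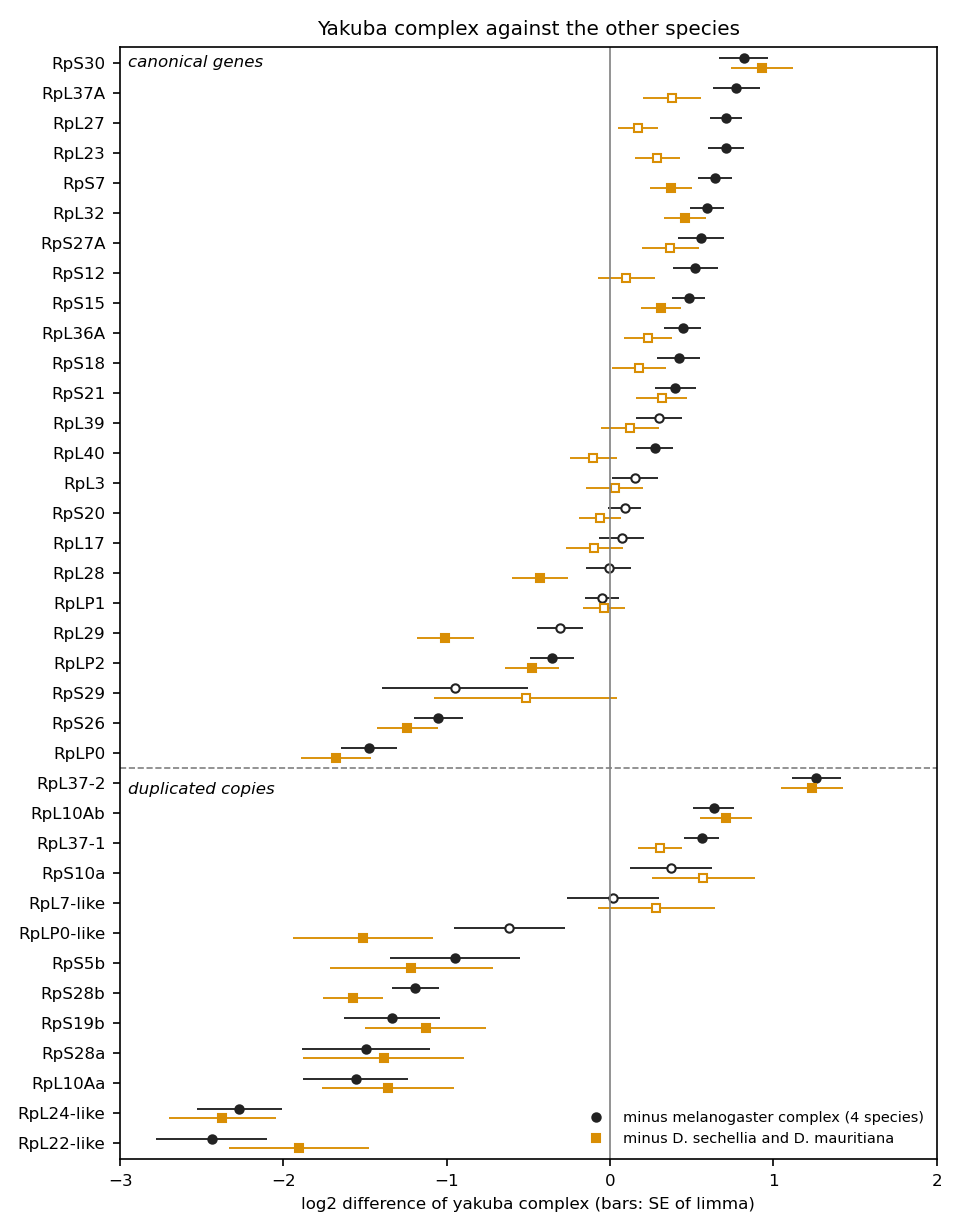
Log2 difference of the yakuba complex (9 arrays) from the melanogaster complex (39 arrays, black circles) and from D. sechellia and D. mauritiana (6 arrays, orange squares) for the 37 members, with bars of 1 SE from limma and filled symbols for calls. Most canonical genes lie between -0.5 and 1 and 8 of 13 copies lie below -0.5 in both; with the signals as deposited the canonical median moves from 0.35 to 1.15 (circles) and from 0.11 to 0.84 (squares).

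The canonical genes called lower were RpLP0, RpS26 and RpLP2. RpLP0, the base of the stalk that recruits elongation factors, was at 13.11, 13.39 and 13.27 in D. teissieri, 11.95, 13.24 and 10.75 in D. yakuba and 12.58, 12.51 and 12.85 in D. santomea. It was at 13.74, 14.12 and 13.72 in D. melanogaster, 14.83, 14.65 and 13.99 in D. sechellia, 14.04, 14.07 and 14.27 in D. mauritiana and 13.37 to 14.44 in D. simulans. The 9 arrays of the yakuba complex lay below all 6 of D. sechellia and D. mauritiana, and the highest of them (13.39) just above the lowest of D. simulans. The difference was -1.48 ± 0.17 (SE, adjusted p = 5.31e-09) from the melanogaster complex and -1.68 ± 0.21 (8.71e-08) within the later collection. It was -1.54 and -1.84 as deposited. RpS26, which lies at the mRNA exit of the small subunit, was at 13.81 to 14.05 in D. teissieri, 13.89 to 14.18 in D. yakuba and 12.75 to 13.99 in D. santomea, against 15.22 to 15.59 in D. sechellia and 14.50 to 14.90 in D. mauritiana. Its difference was -1.05 ± 0.15 (adjusted p = 3.34e-07), and -0.62 (0.00503) as deposited. RpLP2, the stalk partner of RpLP1, differed by -0.36 ± 0.13 (adjusted p = 0.0246) with quantiles and by -0.06 (0.748) as deposited, and its call was lost without D. melanogaster replicate 2 or D. santomea replicate 1.

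Among the canonical genes called higher, RpS30 was at 14.56, 14.60 and 14.73 in D. teissieri, 15.02, 15.20 and 15.07 in D. yakuba and 15.11, 15.10 and 15.23 in D. santomea, against 13.64 to 14.34 on the 6 arrays of D. sechellia and D. mauritiana. It exceeded the melanogaster complex by 0.82 ± 0.15 (SE, adjusted p = 2.61e-05) and D. sechellia and D. mauritiana by 0.93 ± 0.19 (0.000161). D. melanogaster, at 14.75, 14.63 and 14.26, lay with D. teissieri. RpL37A (0.77 ± 0.14), RpL27 (0.71 ± 0.10), RpL23 (0.71 ± 0.11) and RpS7 (0.64 ± 0.10) followed in the comparison with the melanogaster complex, and within the later collection RpL32 (0.46 ± 0.13, adjusted p = 0.00448), known as rp49 and often used as a reference transcript in flies, RpS7 (0.37 ± 0.13, 0.0213) and RpS15 (0.31 ± 0.12, 0.0427). The call of RpS15 was lost in 12 of 48 fits that each left out an array and that of RpS7 in 2 (without D. sechellia replicate 3 or D. mauritiana replicate 3). Lower within the later collection were also RpL29 (-1.01 ± 0.18, adjusted p = 1.87e-05), RpLP2 (-0.48 ± 0.17, 0.0209) and RpL28 (-0.43 ± 0.17, 0.0422), the last of them lost in 11 of 48 such fits. RpLP2 was not called as deposited there either (adjusted p = 0.194).

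D. santomea and D. yakuba, which are sister species, differed in 1 of 37 members, a share of 2.7%, with 5.05% of all features called by limma (2.64% higher and 2.42% lower in D. santomea) and 3 members at an unadjusted p under 0.05. RpL37A, a zinc-binding protein of the large subunit, was at 15.59, 15.05 and 15.67 in D. santomea and at 14.15, 14.04 and 14.30 in D. yakuba. The arrays did not overlap, and the difference was 1.28 ± 0.28 (SE, adjusted p = 0.00403), or 2.09 as deposited. D. teissieri, at 15.67, 15.52 and 15.25, lay with D. santomea. Of 12367 features 6.67% had all arrays of D. santomea above those of D. yakuba. RpS5b differed by 1.86 ± 0.77 (adjusted p = 0.16), at 10.37, 8.75 and 10.21 against 8.44, 7.65 and 7.65, and by 1.87 (0.00153) in the fit without both arrays with female transcripts, neither of which belongs to these species. RpLP1 (-0.43 ± 0.20, adjusted p = 0.23) was the other member at an unadjusted p under 0.05.

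Between D. sechellia and D. mauritiana, 6 canonical genes and 0 copies were called (10 canonical genes and 5 copies at an unadjusted p under 0.05), where limma called 5.26% of all features, 2.32% higher and 2.94% lower in D. sechellia. RpL39, RpS20, RpS18 and RpL3 were higher in D. sechellia, but among the scalings they were called with quantiles only. As deposited and with median centring the calls were 0 higher and 2 lower, and the canonical median went from 0.37 to -0.32 and -0.41. As deposited 0 of the called members reversed in direction, and with median centring RpL3, RpS18 and RpS20 did. RpL28 was lower under each of these scalings. It was at 12.67, 12.35 and 12.64 in D. sechellia and at 13.57, 13.85 and 13.61 in D. mauritiana, which was above the other 6 species in its mean. Its arrays did not overlap, nor did those of 15.5% of all features in that direction. The difference was -1.13 ± 0.26 (SE, adjusted p = 0.00593), -1.50 as deposited (3.44e-05) and -1.18 (0.0158) without both arrays with female transcripts. Its adjusted p was 0.051 without D. sechellia replicate 2. RpS29, a zinc-binding protein of the small subunit, was at 4.004, 6.47 and 6.14 against 8.56, 8.56 and 8.73, a difference of -3.08 ± 0.87 (adjusted p = 0.0264). Its call was lost without D. sechellia replicate 1 (-2.31), the array with female transcripts, and without each D. mauritiana array in turn. The RpS29 probe set had the largest replicate SD of the 37 (1.10), and its range over species means (3.16) was the largest of the canonical genes. It was also the dimmest of the canonical genes, at a mean log2 signal of 7.10. The median was 14.47 over canonical genes and 7.74 over all features. Without both arrays with female transcripts, RpL3 (0.75, adjusted p = 0.226) and RpS18 (0.85, 0.0974) were not called, while RpL39 (1.29, 0.0122) and RpS20 (0.97, 0.00799) were. The call of RpL3 was lost in 10 of 48 fits that each left out an array, and that of RpS18 in 4 (without D. sechellia replicate 1 or 2 or D. mauritiana replicate 1 or 3).

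Of 4 duplicated copies named here as known from the germ line, RpL22-like, RpS19b and RpS5b were called lower in the yakuba complex, the last not in all settings. RpS10a was not called with quantiles and all arrays, and was called higher in some other settings. This set need not hold every such copy. The 3 copies called higher were RpL37-2, RpL10Ab and RpL37-1, and whether they are also known from the germ line was not examined. RpL22-like, the copy of RpL22 known from the male germ line, was at 8.57, 8.55 and 8.85 in D. melanogaster and at 4.64, 8.23 and 8.86 (lowest, median and highest) in D. simulans, where the lowest was the 37x43 array with female transcripts and the next 5.94. It was at 7.14, 7.43 and 6.69 in D. sechellia and at 7.30, 6.82 and 7.97 in D. mauritiana. In D. teissieri it was at 5.05, 5.97 and 6.22, in D. yakuba at 5.30, 6.11 and 4.67 and in D. santomea at 5.28, 4.08 and 5.20, all below D. sechellia and D. mauritiana. The species thus fell into an order of means with D. melanogaster and D. simulans at the top, D. mauritiana and D. sechellia in the middle and the yakuba complex at the bottom. D. simulans overlapped with D. melanogaster and, by its low arrays, with the other species, D. mauritiana overlapped with D. sechellia, and the 3 species of the yakuba complex overlapped with each other. The difference between complexes was -2.44 ± 0.34 (SE, adjusted p = 2.73e-07), within the later collection -1.90 ± 0.43 (0.000567), and without both arrays with female transcripts -2.46 and -1.89. The testis list also had its highest median in D. melanogaster, but its lowest was that of D. mauritiana (8.79), below D. santomea (8.88), D. yakuba (8.88) and D. teissieri (9.07). The yolk and eggshell list was higher in the yakuba complex, and the part of either list in the result was not tested. RpL22 itself was not analysed here.

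RpS19b, a copy of the small-subunit protein S19 known from germ cells, was at 9.05, 9.24 and 9.03 in D. melanogaster, 6.84, 5.85 and 6.45 in D. teissieri, 7.09, 6.75 and 7.96 in D. yakuba and 8.80, 9.49 and 6.41 in D. santomea. D. santomea reached the level of D. melanogaster on 1 of its arrays, and the arrays of the complexes overlapped. The difference was -1.34 ± 0.30 (SE, adjusted p = 0.0003), and -1.13 ± 0.37 (0.0149) within the later collection. RpS10a, another copy known from germ cells, had no call between complexes (0.37 ± 0.25, adjusted p = 0.221). Without D. teissieri replicate 3 it was called higher in the yakuba complex (0.62, 0.0244), also within the later collection (0.82, 0.0209). There it was called higher as deposited too (0.72, 0.0477). Over the 7 species it was called (adjusted p = 0.0254), but not without D. santomea replicate 2 (0.12).

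RpS5b, a copy of S5 known from the ovary, was at 14.39 on the D. sechellia array and at 14.40 on the 37x43 array with female transcripts, and between 7.65 and 10.90 on the 46 others. Both arrays lay more than 3 above every other array. The other arrays of D. sechellia were at 10.22 and 10.49 and those of 37x43 at 9.73 and 9.78. D. yakuba was lowest, at 8.44, 7.65 and 7.65. The difference between complexes was -0.95 ± 0.40 (SE, adjusted p = 0.045), and -0.58 (0.0127) without both arrays. Within the later collection it was -1.22 ± 0.50 (adjusted p = 0.0498) and no longer called without both (-0.55, 0.0861), nor in 39 of 48 fits that each left out an array. Leaving out other arrays also ended the first call (9 of 48 fits), as did the signals as deposited (-0.82, adjusted p = 0.0759). On the 37x43 array RpL22-like was at 4.64, RpS19b at 5.53 and RpL10Aa at 5.12, against 8.07 and 8.58, 8.64 and 8.70, and 8.64 and 8.71 on the other arrays of that cross. On the D. sechellia array RpL22-like (7.14, against 7.43 and 6.69), RpS19b (8.58, against 8.52 and 8.77) and RpL10Aa (8.15, against 8.65 and 9.22) lay nearer to the other arrays of that species.

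**Figure D4:**
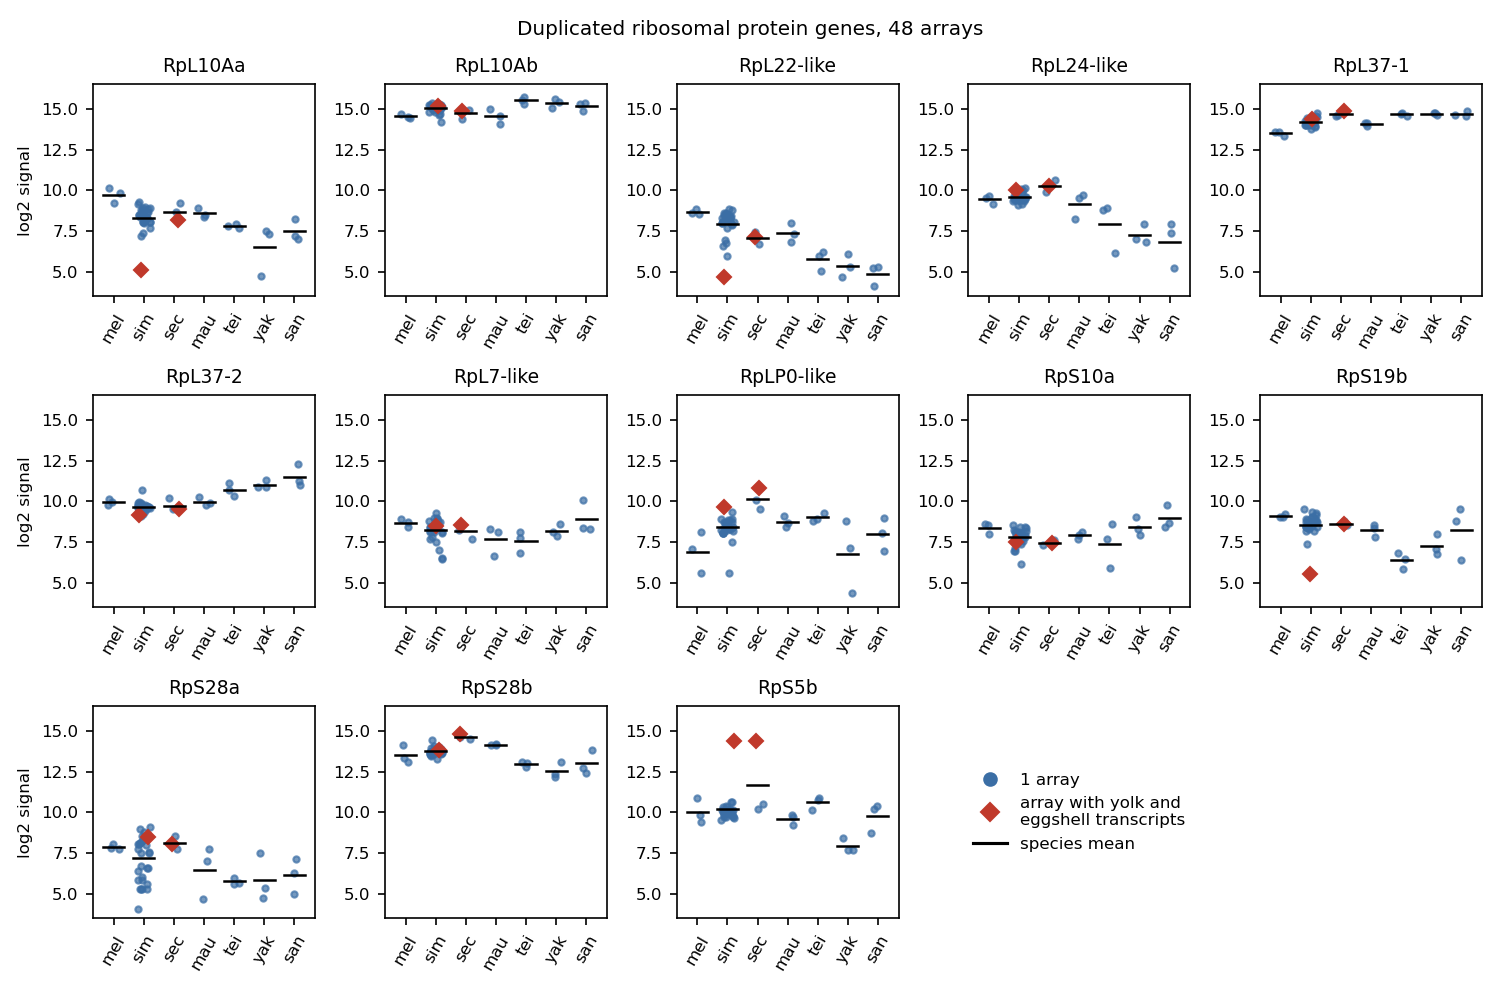
Log2 signals of the 13 duplicated copies, 1 panel each, on the 48 arrays by species (mel, sim, sec, mau, tei, yak and san, for D. melanogaster to D. santomea), with a line at the mean of the arrays of a species and red diamonds for the 2 arrays with yolk and eggshell transcripts. RpS5b reached 14.39 and 14.40 on those arrays. RpL22-like lay at 6.22 or less in the yakuba complex and at 8.86 at most in the melanogaster complex. The complexes overlapped through D. simulans, whose lowest arrays were at 5.94 and, with female transcripts, at 4.64.

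The named genes with the pattern most like RpS5b over the 48 arrays were tor (Pearson r = 0.76), me31B (0.69) and Vm34Ca (0.69), the last an eggshell gene of the list above. Over the 46 arrays without the 2 with female transcripts, these were 0.32, -0.02 and -0.07, and the closest genes were Cyp4g1 (0.76), Hasp (0.75) and CG7755 (0.71). For RpL22-like they were CG8564 (0.86), eIF4G2 (0.85) and Gp150 (0.84), with 0.84, 0.87 and 0.87 over the 46 arrays. These values describe arrays of shared species and are not independent of the species differences.

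Where both members of a duplicated pair had a probe set, the pairs moved together or apart by gene. Each gene is compared with itself, and signals are not compared between probe sets. RpLP0 and RpLP0-like were both called lower within the later collection (-1.68, adjusted p = 8.71e-08, and -1.51, 0.00507). Between complexes RpLP0 was called lower (-1.48) and RpLP0-like was not called (-0.62, 0.133). RpS28b, the main source of S28, and RpS28a were both lower in the yakuba complex, by -1.19 ± 0.15 (SE, adjusted p = 1.74e-08) and -1.49 ± 0.39 (0.00192), and by -1.57 ± 0.18 (1.24e-08) and -1.39 ± 0.50 (0.0247) within the later collection. RpS28b was at 12.75 to 13.09 in D. teissieri, 12.19 to 13.08 in D. yakuba and 12.44 to 13.83 in D. santomea, all below the 14.12 to 14.80 of D. mauritiana and D. sechellia. RpS28a was at 5.59 to 5.98 in D. teissieri and between 4.68 and 8.56 on the arrays of D. sechellia and D. mauritiana, which overlapped with it, and its call within the later collection was lost in 5 of 48 fits that each left out an array. The RpL37 pair was higher in the yakuba complex, RpL37-2 by 1.26 ± 0.15 (adjusted p = 1.19e-08) and RpL37-1 by 0.56 ± 0.11 (4.32e-05). RpL37-2 was at 10.34 to 11.09 in D. teissieri, 10.86 to 11.30 in D. yakuba and 11.02 to 12.28 in D. santomea, all above the 9.49 to 10.25 of D. sechellia and D. mauritiana, where it differed by 1.23 ± 0.19 (2.66e-06). RpL37-1 was not called there (0.31 ± 0.13, 0.0662), but was as deposited (0.996, 3.3e-06).

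The RpL10A pair moved apart. RpL10Ab was higher in the yakuba complex by 0.63 ± 0.13 (SE, adjusted p = 7.91e-05) and RpL10Aa was lower by -1.56 ± 0.32 (0.000128). RpL10Ab was at 15.07 to 15.72 in D. teissieri and D. yakuba and at 14.86 to 15.33 in D. santomea, against 14.10 to 15.01 in D. mauritiana and D. sechellia. RpL10Aa was at 9.23, 9.84 and 10.13 in D. melanogaster, which held its highest mean, and at 7.48, 4.72 and 7.29 in D. yakuba. The difference between the members of a pair was not tested. Within the later collection the values were 0.71 ± 0.16 (0.000494) and -1.36 ± 0.40 (0.00722).

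The 3 copies named after nucleolar relatives behaved differently. RpL24-like, a relative of the yeast assembly factor of pre-60S particles that is later exchanged for L24, was at 6.12, 8.79 and 8.88 in D. teissieri, 6.82, 7.01 and 7.91 in D. yakuba and 7.36, 5.23 and 7.93 in D. santomea. On the arrays of the melanogaster complex it lay between 8.24 (D. mauritiana) and 10.62 (D. sechellia). The complexes overlapped only through that D. mauritiana array and 2 of D. teissieri. The difference was -2.27 ± 0.26 (SE, adjusted p = 5.52e-09), and -2.37 ± 0.33 (4.27e-07) within the later collection. RpLP0-like, a relative of the factor that holds the place of P0 during assembly, was at 10.83, 10.10 and 9.51 in D. sechellia, 9.08, 8.44 and 8.68 in D. mauritiana, and 5.59, 7.04 and 8.08 in D. melanogaster. It had no call between complexes (-0.62 ± 0.34, adjusted p = 0.133), but one within the later collection (-1.51 ± 0.43, 0.00507) and one without the D. melanogaster arrays (-1.17, 0.00526). RpL7-like had no call over the 7 species (adjusted p = 0.236), with means between 7.54 and 8.89.

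Among the 10 D. simulans crosses, limma called 0 of 37 members, against 0.558% of all features, and 3 (2 canonical, 1 duplicated) had an unadjusted p under 0.05, against 8.65% of all features. The nearest to the threshold were RpS28a (F = 4.73, adjusted p = 0.0581) and RpL28 (4.55, 0.0697), followed by RpS30 (2.20, 0.563). RpS28a was called in 14 of 56 alternative fits and RpL28 in 8 of 57, among them those with the signals as deposited (adjusted p = 0.0324 and 0.0204), with median centring (0.0398 and 0.0165) and with a trended and robust spread (0.0389 and 0.00857). RpS28a was at 5.83, 5.26 and 5.61 in 77x85 and 5.83, 6.00 and 5.30 in 105x6, and at 8.95, 8.53 and 8.48 in 37x43. On the deposited linear scale, RpS28a signals were 33.7 to 53.7 in 77x85 and 365 to 475 in 37x43. The mean ranged from 5.57 ± 0.29 (SD, n = 3) in 77x85 to 8.65 ± 0.26 in 37x43, and the 4 lowest means were those of 77x85, 105x6, 85x99 (6.09 ± 1.78) and 99x105 (6.10 ± 0.70). The other 6 crosses had means of 7.31 to 8.65, of which 6x11 (7.31 ± 1.77) and 61x77 (7.61 ± 0.91) overlapped with the low crosses. RpL28 ranged from 12.16 ± 0.26 in 99x105 (arrays at 11.89 to 12.42) to 13.31 ± 0.25 in 11x36 (13.03 to 13.48). These are the lowest and the highest of its 10 cross means, picked by their values.

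**Figure D5:**
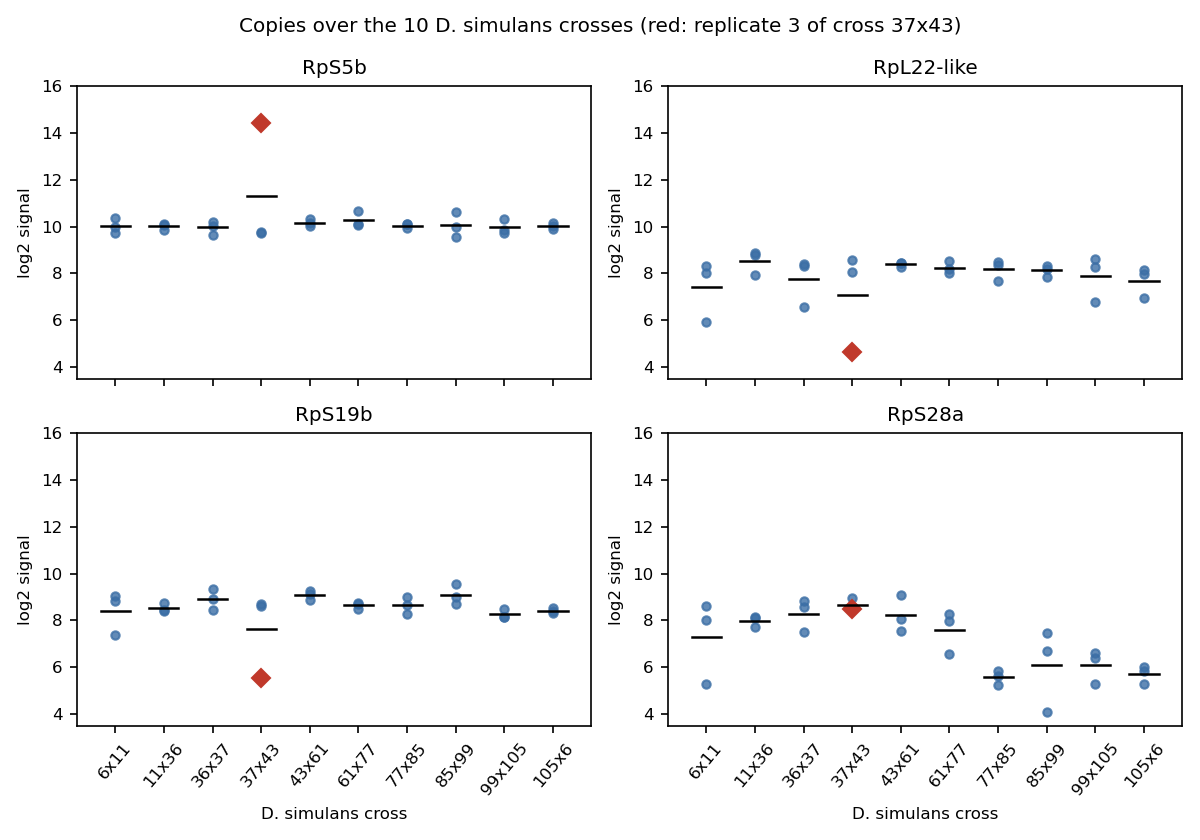
Log2 signals of RpS5b, RpL22-like, RpS19b and RpS28a in the 10 D. simulans crosses, 3 arrays each, with a line at the mean and a red diamond for replicate 3 of 37x43, the array with yolk and eggshell transcripts. RpS28a has its 4 lowest means in 77x85, 105x6, 85x99 and 99x105, and in 37x43 the diamond lies apart from the other arrays for RpS5b (14.40), RpL22-like (4.64) and RpS19b (5.53).

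Most canonical genes had a narrower range over the crosses than the median feature. The range over the 10 cross means was 0.24 for RpL27, 0.27 for RpS18 and 0.32 for RpL40, the smallest of the canonical genes, and 2.07 for RpS29, 1.18 for RpS30 and 1.15 for RpL28, the largest. The median range was 0.54 over canonical genes, 0.92 over copies and 1.29 over all features, beside a median replicate SD of 0.27, 0.68 and 0.75. Over the 7 species the median range was 1.27, 2.37 and 2.03. The spread moved with the signal of the probe sets, whose median was 14.47 for canonical genes, 8.28 for copies and 7.74 for all features, and the part of signal strength in these ranges was not tested. RpS30 had 14.35 to 14.76 in 85x99 and 13.18 to 13.43 in 36x37, the crosses of its highest and lowest mean, picked by their values. It was not called by limma over the crosses (adjusted p = 0.563).

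Other components of the translation machinery gave a background for the canonical genes. Of 64 mitochondrial ribosomal proteins, which build the organelle's own ribosome, 55 were called over the 7 species, 38 between complexes (20 higher and 18 lower in the yakuba complex, median 0.11) and 11 between D. simulans and D. melanogaster (6 higher and 5 lower, median -0.08). Of 29 measured translation factors and ribosome-associated proteins, 26 were called over the species, 17 between complexes (7 higher, 10 lower) and 13 between D. simulans and D. melanogaster (6 higher, 7 lower). Of 21 measured genes of ribosome biogenesis, a list that holds RpL24-like, RpL7-like and RpLP0-like, 10 were called between complexes (2 higher, 8 lower, median -0.37), 14 over the species and 4 between D. simulans and D. melanogaster (1 higher, 3 lower). Against D. sechellia and D. mauritiana the yakuba complex had 29, 11 and 10 calls in these 3 lists (11, 3 and 2 of them higher). The crosses gave 1, 1 and 0 calls, D. santomea against D. yakuba 4, 4 and 0, and D. sechellia against D. mauritiana 1, 1 and 0. The split of 13 higher and 0 lower of the canonical genes between D. simulans and D. melanogaster stood beside near-even splits in the first 2 of these lists. The difference between lists was not tested. The 3 lists were dimmer, with median log2 signals of 8.65, 10.84 and 6.99 against 14.47 for canonical genes. Their median replicate SDs were 0.60, 0.39 and 0.90 against 0.27. The part of signal strength in the calls was not tested.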

How the data were processed

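The deposited intensity values are MAS5 signals per probe set, made by the authors on a linear scale, with each array's mean 500 after 2% trimming at either end; they hold no detection calls. The study's methods describe a Loess step on the arrays and the masking of probes mismatched to D. yakuba; all 14010 probe sets are present, and whether Loess is in these values is not given in the sources used here. Signals below 1 (31 values) were set to 1 before log2. Array medians spanned 0.696, above 0.3, so arrays were quantile normalized. Per gene the brightest probe set was kept. Probe set names came from GEO's platform annotation (apart from 44 controls, 12443 probe sets with 1 symbol, 327 with several, 1239 with none). limma 3.58.1 in R 4.3.3 (lmFit, eBayes) was fitted over 16 groups, with Benjamini-Hochberg adjustment over all features and a threshold of 0.05. P-values measure the spread between replicate arrays, whose number limits the precision. The fits were tested on simulated data, and figures were drawn with matplotlib 3.10.9. Members and lists were chosen with earlier results of these data known. Named canonical genes are the 5 highest and 5 lowest called per difference, the 6 largest F and the extremes of range, and every copy is named; others were named after their values were seen, where a setting changed their call. Scaling, floor (16), a dim filter (mean log2 of 7), probe set choice, replicate block, spread model and each array were varied; leaving out both arrays with female transcripts, or D. melanogaster, was added after seeing the data.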

Additional observations from a re-analysis of the deposited data

How the results depend on the processing

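The scaling between arrays mattered most. In the signals as deposited, the cross test called 1 canonical gene and 1 copy, the yakuba complex exceeded the melanogaster complex by a canonical median of 1.15 (0.35 with quantiles) and D. sechellia and D. mauritiana by 0.84 with 19 canonical calls (0.11 and 9), and D. sechellia against D. mauritiana gave 2 canonical calls and a median of -0.32, which reversed 0.37. With median centring the values were 1 and 1, 1.09, 0.74 with 18 calls, and 2 with -0.41, and RpL3 (-0.0407), RpS18 (-0.0521) and RpS20 (-0.0311) reversed in that last comparison. With dim features left out the cross test called 1 canonical gene, RpL28; with a trended and robust spread it called 1 canonical gene and 1 copy, and 1 copy, RpL37-1, was called between D. sechellia and D. mauritiana. Without both arrays with female transcripts, 1 copy (RpS5b) was called between D. santomea and D. yakuba and 3 canonical genes between D. sechellia and D. mauritiana. A floor of 16, the mean of probe sets, leaving out probe sets that may cross-hybridize and leaving out D. melanogaster moved no count by over 1.5 times. The cause of these shifts was not tested.

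Leaving out each array in turn gave 0 to 1 canonical genes in the cross test (RpL28 without replicate 2 of D. yakuba, D. santomea or 6x11 or replicate 3 of 77x85), 0 to 1 copies there (RpS28a without replicate 1 or 3 of D. mauritiana, 1 or 2 of D. yakuba, 2 or 3 of D. santomea, 2 or 3 of 6x11, 1 of 61x77, or 1 or 2 of 85x99), 1 to 4 copies between D. simulans and D. melanogaster (1 without D. melanogaster replicate 2), 1 to 2 canonical genes and 0 to 1 copies between D. santomea and D. yakuba (RpLP0 without D. yakuba replicate 2, RpLP0-like without D. yakuba replicate 3, RpS19b without D. santomea replicate 3), and 3 to 6 canonical genes and 0 to 1 copies between D. sechellia and D. mauritiana (3 without D. sechellia replicate 1 or 2 or D. mauritiana replicate 1 or 3; RpS5b without the 37x43 array with female transcripts). Calls held in every such fit for 31 of 32 members over the species, 23 of 26 between complexes (not RpL40, lost in 32 fits, RpLP2 or RpS5b), 14 of 19 within the later collection, 10 of 16, 1 of 1 and 2 of 6 in the other differences.

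The replicate numbers did not pair the arrays: same-numbered arrays had a mean correlation of deviations of -0.0005 and a lowest of -0.183, with 0 of 120 pairs of groups over 0.1 throughout. With the replicate number as a block, 32 members were called over the species, 26 between complexes and 18 within the later collection, where RpS5b was lost (adjusted p = 0.052), and no other call changed.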
